A study of Homo sapiens with 16 samples.

Results

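The translation initiation and elongation factors are the proteins that load a ribosome onto a messenger RNA and move it along. Of the 26229 genes in the deposited count table, 71 had a symbol beginning with EIF1 to EIF6 or EEF. The 4 EIF2AK kinases, the 3 EIF4EBP binding proteins, 3 antisense genes and 2 pseudogenes were left out, which gave 59 genes. They were read in A431 cells, an epidermoid carcinoma line, and in HaCaT cells, a spontaneously immortalised keratinocyte line, both grown in DMEM with foetal calf serum. The study asked how YAP1, a transcriptional coactivator, acts in epidermal cells. Each line was read in 4 conditions, which makes 16 libraries in 8 groups. The siRNA arm held 1 control siRNA library (siCTRL) and 3 libraries with YAP1 silenced (siYAP), and no expression vector was used in it. The vector arm held 1 library with the vector empty and 3 with YAP5SA, a constitutively active YAP1 mutant. The siRNAs were given in 2 rounds 24 h apart and RNA was taken 48 h after the second. Each control is a single library, so the spread between control cultures could not be measured, and no label says whether the libraries of a triplicate came from separate cultures, though the study's methods call the triplicates biological.

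Initiation starts when eIF2 brings the initiator tRNA to the small ribosomal subunit, helped by eIF1, eIF1A, eIF5 and the large scaffold eIF3. The eIF4F complex (the cap-binding protein eIF4E, the scaffold eIF4G and the helicase eIF4A) recruits this assembly to the capped messenger, and eIF2B recharges eIF2 with GTP for the next round. In elongation eEF1A delivers each aminoacyl-tRNA, eEF1B recharges eEF1A, eEF2 moves the ribosome by a codon, and eIF5A, which carries the modified residue hypusine, helps at sequences on which ribosomes stall.

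Of the 59 genes, 55 had a mean above 10 counts per library and entered the test, each with a level above 1 on the log2 scale of CPM (logCPM). CPM, the unit of every level given here, is the count scaled to the library's total after TMM adjustment. EIF4E1B, EIF5AL1 and the read-through EEF1E1-BLOC1S5 did not reach that mean, and EIF1AY, a Y-linked gene, was counted without a value being given. Between 18115599 and 46791617 estimated counts per library were assigned to genes. A count of 0 allows up to 3 counts, or 0.0641 to 0.166 CPM in these libraries, by counting error alone. YAP1 itself lay at 5.04 to 6.99 CPM with siYAP against 94.2 with siCTRL in A431 cells, and at 21.6 to 23.2 against 254 in HaCaT cells. With YAP5SA it lay at 1494 to 3244 CPM against 124 with the empty vector in A431 cells, and at 7546 to 22243 against 423 in HaCaT cells. EGFR was higher in A431 cells by 1.24 on the log2 scale (SE 0.092, edgeR FDR = 6.09e-08). The 6 keratinocyte markers (KRT5, KRT14, KRT17, TP63, CDH1 and DSG3) were read in every library at 134 CPM or more. Of the melanocyte and fibroblast markers TYR had 0 counts in each library, and the highest level of any was 5.68 CPM (COL1A1). The leukocyte markers PTPRC and CD3E did not exceed 0.255 and 0.129 CPM. With siYAP 4 of the 6 markers were above 0 in each line (medians of 0.012 in A431 and 0.38 in HaCaT cells). KRT14 was called higher in both lines (1.31 and 1.62) and CDH1 in HaCaT cells (0.85). With YAP5SA in HaCaT cells KRT17 was called higher (0.87) and DSG3 lower (-1.22). The part of these markers in the results on translation factors was not tested. In RNA from whole cultures, fewer cells of a kind and less RNA per cell cannot be told apart.

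The first comparison asked which of these factors changed when YAP1 was silenced. Calls required a logCPM above 1 and an FDR below 0.05, from the edgeR quasi-likelihood test with Benjamini-Hochberg adjustment over the 14673 genes tested. In A431 cells 2 members were called higher and 2 lower, against 1.81% of all genes higher and 3.78% lower. In HaCaT cells 1 was called higher and 5 lower, against 2.37% and 3.30% of all genes. Over both lines 3 were called higher and 8 lower, against 5.30% and 7.68%. The median log2 fold change of the 55 members over both lines was -0.19, with 37 of them below 0, whereas the median of all genes was 0.038 and 45.8% of them lay below 0. Without the third siYAP library of A431 cells, 7 members in place of 11 were called over both lines, and 8.85% in place of 13.0% of all genes.

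**Figure D1:**
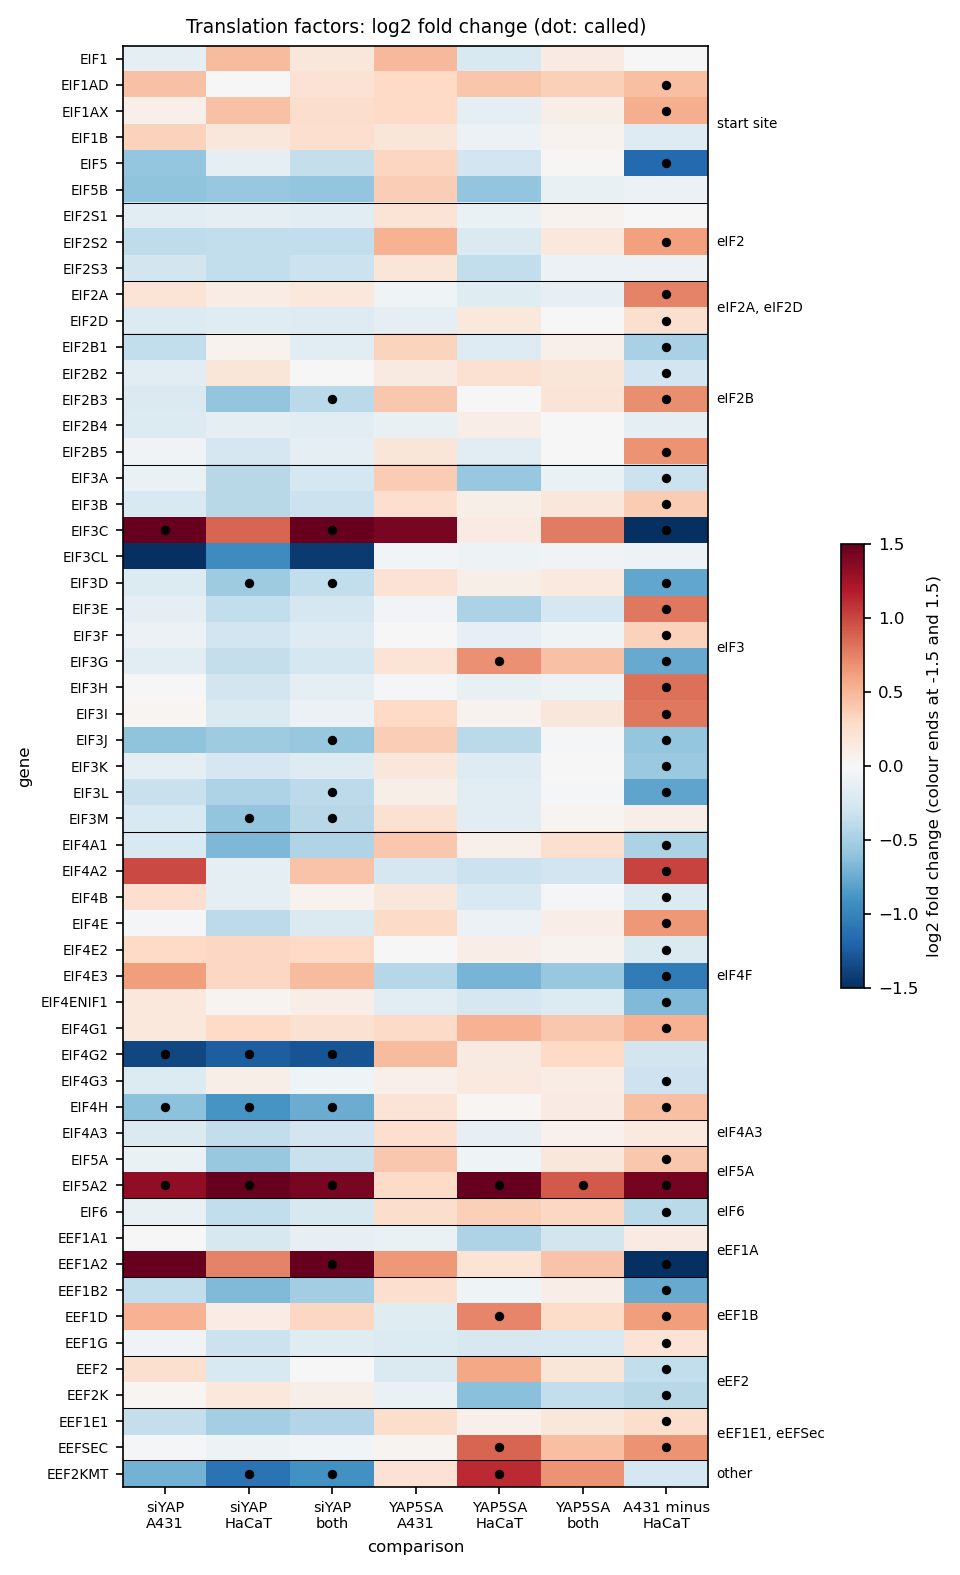
Log2 fold change of the 55 tested factors (rows, grouped by complex) in 7 comparisons (columns), with red for higher and blue for lower and a black dot where the gene was called. EIF4G2 and EIF4H are blue in the 3 siYAP columns, EIF5A2 is red throughout, and most dots stand in the column that sets A431 against HaCaT cells.

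The fall of EIF4G2 was the largest among the members called lower. This gene encodes an eIF4G relative without the part that binds eIF4E, known for initiation that does not depend on the cap-binding protein. In A431 cells EIF4G2 stood at 938 CPM with siCTRL and at 359, 397 and 334 CPM with siYAP, a 2.58-fold lower level (log2 fold change -1.37, SE 0.22, edgeR FDR = 0.00437). In HaCaT cells it stood at 1078 CPM with siCTRL and at 464, 420 and 493 CPM with siYAP, which was 2.35-fold lower (log2 fold change -1.23, SE 0.22, edgeR FDR = 0.00594). The 3 silenced libraries of each line lay below every other library of that line. Both falls stayed called under each of the 10 alternatives tried within a line. With YAP5SA EIF4G2 lay at 1004, 1408 and 1298 CPM against 891 in A431 cells and at 998, 1561 and 1422 against 1214 in HaCaT cells, and neither difference passed the test (log2 fold changes of 0.47 and 0.13, edgeR FDR = 0.803 and 0.738). The other scaffolds differed from it with siYAP over both lines, EIF4G1 having a log2 fold change of 0.23 and EIF4G3 of -0.061, and neither was called.

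EIF4H, a cofactor that stimulates the helicase eIF4A, was the second factor called lower in both lines. It lay at 370 CPM with siCTRL and at 228, 250 and 244 CPM with siYAP in A431 cells (log2 fold change -0.62, SE 0.14, edgeR FDR = 0.0241). In HaCaT cells it lay at 215 CPM with siCTRL and at 119, 119 and 112 CPM with siYAP (log2 fold change -0.88, SE 0.14, edgeR FDR = 0.00313). The siYAP libraries did not reach the control in either line. The call in A431 cells was lost when the first or the third siYAP library was left out, and when both control libraries of the line were used. EIF4B, the related cofactor, lay at 931 CPM against 1089 to 1118 in A431 cells and at 1481 against 1266 to 1478 in HaCaT cells, and was not called. EIF4E, which binds the cap, changed by -0.21 over both lines and EIF4A1, the main helicase, by -0.45, also without a call by edgeR (FDR = 0.225 and 0.0573). DESeq2 called EIF4A1 lower, as did edgeR with both controls of each line, which also called EIF4E. The 2 controls of HaCaT cells stood apart, with siCTRL at 53.7 and empty vector at 150 CPM for EIF4E, and at 640 and 1324 for EIF4A1. In A431 cells EIF4E lay at 123 and 124 CPM in the 2 controls and at 113 to 128 with siYAP. EIF4A2, the paralog of EIF4A1, went from 863 to 1820, 1697 and 1604 CPM in A431 cells and from 647 to 581, 669 and 522 CPM in HaCaT cells. The A431 difference of 0.98 (SE 0.40) did not pass the test (edgeR FDR = 0.168), nor did the difference between the lines (1.12, SE 0.53, edgeR FDR = 0.449).

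**Figure D2:**
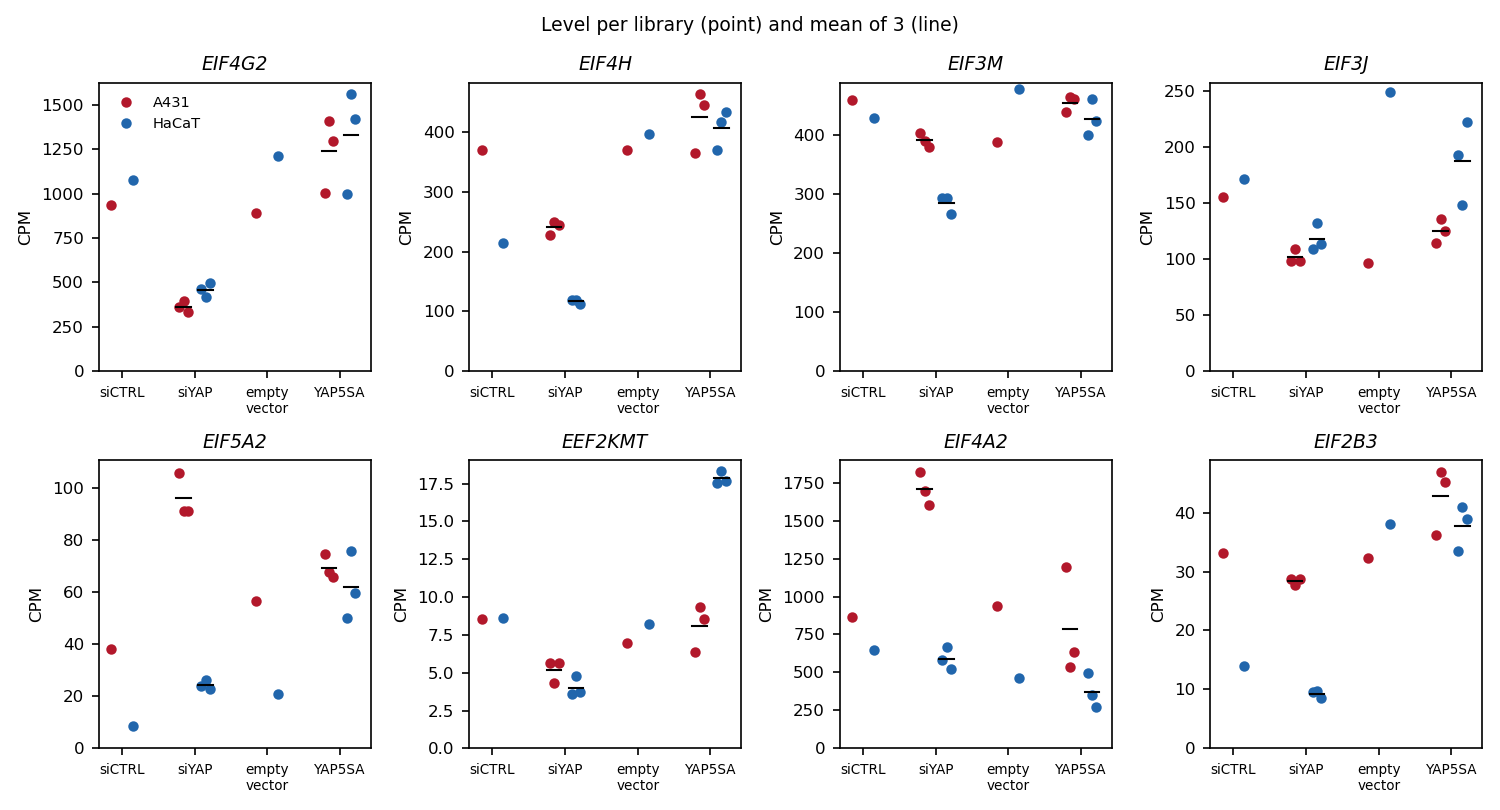
CPM of 8 factors in each library, with siCTRL, siYAP, empty vector and YAP5SA along the x axis, A431 cells in red, HaCaT cells in blue and a black line at the mean of each triplicate. EIF4G2 and EIF4H drop with siYAP in both lines, and EIF5A2 is higher with siYAP in both lines and with YAP5SA in HaCaT cells.

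The eIF3 scaffold has 13 subunits, of which EIF3C is listed with a near-identical copy, EIF3CL. With those 2 genes set aside, the other 12 subunits had a median log2 fold change of -0.26 with siYAP over both lines, and each of the 12 was below 0. The lowest value was -0.57 and the highest -0.091. Of these, 4 were called lower and 0 higher by edgeR, where 7.68% and 5.30% of all genes were. With both controls of each line EIF3L stood at 0.028 in place of -0.40. EIF3J, a loosely bound subunit that acts in start site selection, lay at 155 CPM with siCTRL and at 98.7, 109 and 98.8 CPM with siYAP in A431 cells. In HaCaT cells EIF3J lay at 172 CPM with siCTRL and at 109, 132 and 114 CPM with siYAP, and the fall over both lines was 0.57 (log2 fold change -0.57, SE 0.13, edgeR FDR = 0.0134). EIF3M was lower over both lines by less (log2 fold change -0.41, SE 0.085, edgeR FDR = 0.00758). Its level went from 460 to 404, 390 and 380 CPM in A431 cells and from 429 to 294, 294 and 266 CPM in HaCaT cells, where it was also called alone.

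EIF3D, a subunit that can bind the cap of some messengers, was lower over both lines by a similar amount (log2 fold change -0.37, SE 0.094, edgeR FDR = 0.023). It went from 196 to 177, 166 and 166 CPM in A431 cells and from 365 to 268, 254 and 238 CPM in HaCaT cells. The call over both lines was lost without the third siYAP library of A431 cells, and the call in HaCaT cells alone without any 1 of its 3 siYAP libraries. EIF3L, which is bound to the complex through other subunits, was at the edge of the threshold (log2 fold change -0.40, SE 0.12, edgeR FDR = 0.0489). The EIF3L call was lost under 9 of 13 alternatives, among them each siYAP library left out in turn. In HaCaT cells the 12 subunits had a median of -0.39 and 12 of 12 were below 0, and in A431 cells a median of -0.16 with 10 of 12 below 0. No eIF3 subunit other than EIF3C differed between the lines in its response to siYAP at an unadjusted edgeR p under 0.05.

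EIF3C and EIF3CL are reported as uncertain, because the reads of 2 near-identical genes can be split between them in different ways from library to library. EIF3C alone stood at 1.76 CPM with siCTRL and at 77.0, 100 and 89.1 CPM with siYAP in A431 cells, which was called (log2 fold change 5.65, SE 0.89, edgeR FDR = 0.00414). EIF3CL moved the other way in the same libraries, from 151 CPM to 51.7, 25.8 and 41.1 CPM. Added together, the copies lay at 153 CPM with siCTRL and at 129, 126 and 130 CPM with siYAP. That difference was -0.25 (SE 0.28) and did not pass the test (edgeR FDR = 0.651). The share of the sum that was assigned to EIF3C ranged from 1.16% in the A431 siCTRL library to 100% in 1 HaCaT YAP5SA library. Over both lines the sum changed by -0.19 with siYAP (SE 0.20, edgeR FDR = 0.571), against 3.26 for EIF3C alone.

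**Figure D3:**
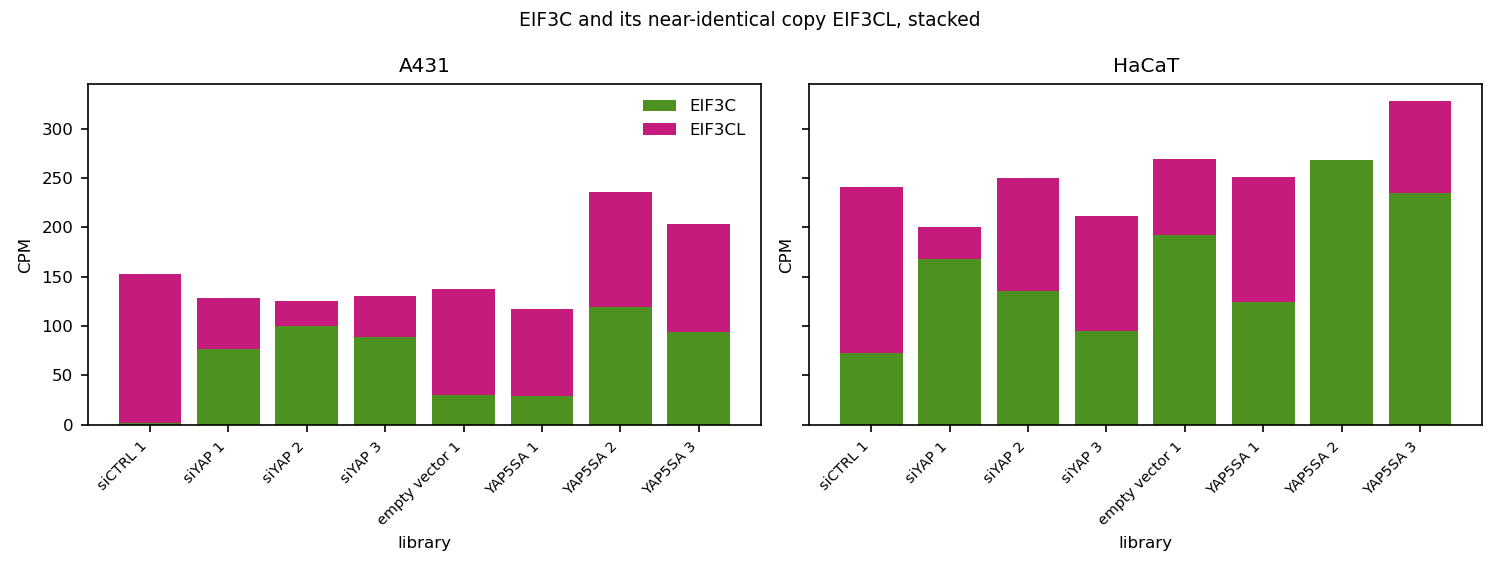
CPM assigned to EIF3C (green) and EIF3CL (pink), stacked for each library of A431 cells (left) and HaCaT cells (right). The split between the colours changes from library to library, from 1.16% green in the A431 siCTRL library to 100% in the second HaCaT YAP5SA library.

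Among the factors that handle the initiator tRNA, EIF2B3 was the one called by edgeR with siYAP over both lines. It encodes a subunit of the catalytic part of eIF2B. EIF2B3 lay at 33.1 CPM with siCTRL and at 28.8, 27.8 and 28.7 CPM with siYAP in A431 cells, and at 14.0 against 9.60, 9.76 and 8.49 CPM in HaCaT cells (over both lines -0.41, SE 0.12, edgeR FDR = 0.0464). The call was lost when any 1 of the 6 siYAP libraries was left out. The other eIF2B subunits ranged from -0.17 to 0.0098 over both lines. The 3 subunits of eIF2 were at -0.16 (EIF2S1), -0.37 (EIF2S2) and -0.32 (EIF2S3). None passed the edgeR test (FDR = 0.27, 0.0509 and 0.0622), whereas DESeq2 called EIF2S2 and EIF2S3. EIF5B, which joins the ribosomal subunits, was at -0.59 (SE 0.22) and was not called either (edgeR FDR = 0.1). The remaining tested genes that were grouped under start site recognition, EIF1, EIF1B, EIF1AX, EIF1AD and EIF5, ranged from -0.36 to 0.26.

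EIF5A2 was called higher with siYAP in both lines and also with YAP5SA in HaCaT cells. It is the second eIF5A gene, known to be more restricted among tissues than EIF5A and amplified in some tumours. In A431 cells EIF5A2 lay at 38.3 CPM with siCTRL and at 106, 91.1 and 91.0 CPM with siYAP (log2 fold change 1.33, SE 0.21, edgeR FDR = 0.00441). In HaCaT cells it lay at 8.41 CPM with siCTRL and at 23.8, 26.4 and 22.7 CPM with siYAP (log2 fold change 1.53, SE 0.23, edgeR FDR = 0.00205). With YAP5SA in HaCaT cells it lay at 21.0 CPM with the empty vector and at 50.1, 75.8 and 59.6 CPM with the mutant (log2 fold change 1.55, SE 0.22, edgeR FDR = 0.00239). In A431 cells the same comparison gave 56.6 CPM against 74.6, 67.6 and 65.6 CPM (log2 fold change 0.29, SE 0.20, edgeR FDR = 0.829). In each of the 4 comparisons every treated library lay above its control. The difference of the YAP5SA effect between the lines, -1.26 (SE 0.28), did not pass the test (edgeR FDR = 0.0589). EIF5A, the widely expressed form, changed by -0.33 with siYAP and 0.17 with YAP5SA over both lines, and was not called. With siCTRL and empty vector as 2 controls of a line, the 2 siYAP calls of EIF5A2 within lines were lost (edgeR FDR = 0.121 in A431 and 0.101 in HaCaT cells).

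Of the elongation factors, EEF1A2 and EEF2KMT were called with siYAP. EEF1A2, the eEF1A form of muscle and neurons, had 0 counts with siCTRL and 13, 24 and 13 counts with siYAP in A431 cells. The mean of the silenced libraries was at least 3.96-fold higher than the floor of 3 counts in the control library. In HaCaT cells EEF1A2 lay at 11.5 CPM with siCTRL and at 19.4 ± 2.25 CPM with siYAP (SD, n = 3). The fitted value over both lines depends on the prior count and passed narrowly (edgeR FDR = 0.0473), and the call was lost without any 1 of 5 of the 6 siYAP libraries. EEF2KMT, a methyltransferase that modifies eEF2, lay at 8.52 CPM against 5.65, 4.34 and 5.64 in A431 cells and at 8.63 against 3.56, 4.76 and 3.70 in HaCaT cells. Its fall over both lines was 0.91 (log2 fold change -0.91, SE 0.18, edgeR FDR = 0.00623). EEF2KMT belongs to a family of near-identical genes and pseudogenes, so that its count is uncertain. EEF1A1, EEF2 and the 3 eEF1B genes EEF1B2, EEF1D and EEF1G ranged from -0.52 to 0.31 without a call by edgeR. The lowest, EEF1B2 (edgeR FDR = 0.0776), was called by DESeq2.

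The second comparison asked what active YAP did to the same factors. In A431 cells no member was called with YAP5SA by edgeR, as for the whole table, where 0% of genes were called. YAP1 itself, with a log2 fold change of 4.36, was not called there (edgeR FDR = 0.197). At an unadjusted p under 0.05 there were 4 members (EIF1, EIF2B3, EIF2S2 and EIF3C), the lowest FDR was 0.803, and DESeq2 called 0. The median over the 55 members was 0.20, with 40 above 0 and 15 below, whereas the median of all genes was 0.020 and 46.4% of them lay below 0. The first YAP5SA library of A431 cells lay nearer to the vector library than the other two did, with a median log2 difference over the members of 0.055 against 0.26 and 0.23. Without it 1 member, EIF2S2, was called, beside 0.592% of all genes. EIF2S2, the beta subunit of eIF2, lay at 410 CPM with the empty vector and at 479, 657 and 637 CPM with YAP5SA.

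In HaCaT cells 5 members were called higher with YAP5SA and 0 lower, against 6.99% and 6.64% of all genes. That balance depended on the control. With siCTRL added to the empty vector 3 were called higher (EEF2KMT, EIF4G1 and EIF5A2) and 8 lower, where 13.0% of all genes were called in either direction. The 8 were EEF1A1, EEF1G, EEF2K, EIF2S3, EIF3E, EIF3F, EIF3L and EIF4B. As siCTRL belongs to the siRNA arm, that setting mixes arm and treatment. For EEF1A1, EEF1G, EEF2K, EIF3E, EIF3F, EIF3L and EIF4B the empty vector library itself also lay below every siRNA library of the line. EIF4B, for example, lay at 1481 CPM with siCTRL and at 597 with the empty vector. Against the empty vector alone the median of the members was -0.082 with 32 of 55 below 0, whereas the median of all genes was 0.013 and 48.8% of them lay below 0. The first YAP5SA library of HaCaT cells had a median log2 difference to the vector library of -0.22 with 15 of 55 members above 0, and the others had 0.070 and 0.015 with 31 and 29 above. Besides EIF5A2, the members called higher against the empty vector alone were EEF2KMT, EEF1D, EIF3G and EEFSEC. EEF2KMT lay at 8.21 CPM with the empty vector and at 17.6, 18.3 and 17.7 CPM with YAP5SA (log2 fold change 1.12, SE 0.27, edgeR FDR = 0.0201). It thus lay below its control with siYAP and above it with YAP5SA in HaCaT cells. EEFSEC, which delivers the selenocysteine tRNA, lay at 5.44 CPM against 9.30, 8.90 and 11.6 CPM (log2 fold change 0.87, SE 0.24, edgeR FDR = 0.0308).

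EEF1D, a nucleotide exchange subunit of eEF1B, lay at 113 CPM with the empty vector and at 164, 179 and 219 CPM with YAP5SA (log2 fold change 0.73, SE 0.19, edgeR FDR = 0.0275). The level of EIF3G, an RNA-binding subunit of eIF3, was 41.7 CPM against 60.8, 64.0 and 75.5 CPM (log2 fold change 0.68, SE 0.18, edgeR FDR = 0.0276). In these 4 genes every YAP5SA library of HaCaT cells lay above the control. For EEF1D, EIF3G and EEFSEC the vector library was also below the 4 siRNA libraries of the line, which lay at 234 to 257 CPM for EEF1D, at 47.6 to 63.2 CPM for EIF3G and at 8.35 to 9.12 CPM for EEFSEC. The calls of EEF1D, EIF3G and EEFSEC were lost with siCTRL and empty vector as 2 controls, and without the third YAP5SA library. In the latter setting 2 members were called, beside 7.79% of all genes. Without the first YAP5SA library 9 were called, and the share of all genes called rose from 13.6% to 19.8%.

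Over both lines EIF5A2 was the member called with YAP5SA (log2 fold change 0.92, SE 0.15, edgeR FDR = 0.0122), 1 higher and 0 lower, against 1.38% and 0.661% of all genes. That count was 4 without the first YAP5SA library of A431 cells and 5 without the first of HaCaT cells, while the share of all genes called went from 2.04% to 8.30% and 9.33%. The response to siYAP differed between the lines for 0 members by edgeR, against 0.170% of all genes. The response to YAP5SA also differed for 0 members, against 0.0886%. At an unadjusted edgeR p under 0.05 there were 2 of the 55 members for siYAP and 11 for YAP5SA, beside 1690 and 3280 of the 14673 genes. DESeq2 called 1 member (EIF3C) and 2 (EEF1D and EIF5A2), beside 1.91% and 6.32% of all genes. Leaving out the first YAP5SA library of A431 cells gave 3 calls for the YAP5SA response, and leaving out the first or the second of HaCaT cells gave 2 and 1. In those settings the share of all genes called rose from 0.0886% to 5.94%, 4.16% and 3.39%.

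Short sequence matches were read beside these values for the genes called lower. The 7-base sequences TTCTTAA and CTTCTTA in 3′ UTRs were picked by an earlier scan of the same siYAP fold changes, so their counts here are a description. Of 10675 tested genes with a logCPM above 1 and a 3′ UTR of at least 50 bases in GENCODE v29, 27.2% held at least 1 of the 2 in the sense strand. Among 50 members with such a UTR 17 did (34.0%), and among the 8 members called lower with siYAP over both lines 4 did. Of all genes called lower 53.3% held a site, and of all genes called higher 24.7%. The 17 members with a site had a median log2 fold change of -0.16 with siYAP over both lines and the 33 without a site had -0.20, whereas over all genes the medians were -0.083 and 0.030. The part of these sites in the falls was not tested. The windows of the 4 members called lower are shown 5′ to 3′ from GENCODE v29 (GRCh38), with the site in capitals, and EIF5A2, called higher, is shown beside them. They lie at chr11:10797372-10797398 (minus strand, EIF4G2), chr11:32604603-32604629 (plus, EIF3M), chr22:37889351-37889377 (plus, EIF3L), chr16:5085413-5085439 (minus, EEF2KMT) and chr3:170892732-170892758 (minus, EIF5A2).
EIF4G2: tacagaaaaaTTCTTAActgtaattga
EIF3M: tttcctcctgTTCTTAAgtctgttaag
EIF3L: ctaaattgaaTTCTTAAatccctcttg
EEF2KMT: gcagttctggTTCTTAAgaaaatcacc
EIF5A2: gttttagtccCTTCTTAtggttggcag

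EIF4H, EIF3D, EIF3J and EIF2B3 were called lower as well and held neither 7-base sequence in that UTR. Their UTRs were 1793, 137, 1654 and 173 bases long. The median UTR length was 505.5 bases over the 50 members, 1100 over all genes and 1537 over all genes called lower, and longer UTRs offer more positions for a match.

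Promoters were read in the same way, from 250 bases before to 50 bases after the gene start (RefSeq, GRCh38.p14), a window that the table held for 45 of the 55 tested members. The E-box CACGTG, a palindrome bound by MYC and related factors, was in 12 of the 45 (26.7%), against 9.84% of the promoters of tested genes and 7.43% of all promoters. CATTCC or its reverse complement GGAATG, the core of the TEAD site through which YAP is known to act, was in 3 of the 45 (6.67%), against 11.1% and 14.0%. Among the 9 matched members that a treatment comparison called, 2 held the core of the TEAD site (22.2%), a higher share than the 11.1% of tested genes. Of the same 9 members, 4 held CACGTG, namely EIF4H, EIF5A2, EIF2B3 and EEFSEC. The windows of EIF4H and of EIF5A2 (the first of its 2 matches) are shown with CACGTG in capitals, as these are the 2 of the 4 that siYAP changed in each line on its own. They lie at chr7:74174145-74174174 (plus strand, EIF4H) and chr3:170908807-170908836 (minus, EIF5A2). No binding was measured in these libraries.
EIF4H: acgccgccgcacCACGTGggctgcagagcg
EIF5A2: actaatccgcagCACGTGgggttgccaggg

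The single controls of a line could differ from each other as well, and in HaCaT cells EIF4H lay at 215 CPM with siCTRL and 397 with the empty vector, EIF2B3 at 14.0 and 38.0 and EIF4A1 at 640 and 1324. In A431 cells the same 3 genes lay at 370 and 370, 33.1 and 32.3, and 554 and 611 CPM. The levels of several abundant factors went with the arm of the study. The 59 genes together took 3.40% to 4.22% of assigned counts in the 8 siRNA-arm libraries (siCTRL and siYAP) and 2.32% to 3.12% in the 8 vector-arm libraries (empty vector and YAP5SA). EEF1A1, which delivers aminoacyl-tRNA, alone took 1.88% to 2.31% and 0.897% to 1.60%. In both lines the 4 vector libraries lay below the 4 siRNA libraries without overlap for 8 of the 55 members, against 7.44% of all genes. They lay above without overlap for 6, against 9.45%. The 8 were EEF1A1, EEF1G, EEF2, EIF3E, EIF3F, EIF3L, EIF4B and EIF4G3. EIF4B, for example, lay at 931 to 1118 CPM in the siRNA arm and at 540 to 628 in the vector arm of A431 cells, and at 1266 to 1481 and 449 to 597 CPM in HaCaT cells. The 6 that lay above were EIF1AX, EIF2B2, EIF4A1, EIF4A3, EIF5A and EIF6. EIF4A1 lay at 452 to 554 and 611 to 903 CPM in A431 cells, and at 350 to 640 and 1132 to 1665 CPM in HaCaT cells. The arms differ in what the cells were given, and whatever else differed between them cannot be told apart from it.

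The third comparison set A431 against HaCaT cells over the 4 conditions. Of the 55 members 22 were called higher in A431 cells and 21 lower, against 33.1% and 27.5% of all genes. The median of the members was -0.080. Each label stands for 1 line, and 2 lines do not stand for carcinoma and keratinocyte in general. Within eIF3, 5 of the 12 subunits other than EIF3C and EIF3CL were called higher in A431 cells and 6 lower. EIF3H, EIF3E and EIF3I were higher by 0.83 (SE 0.088), 0.79 (SE 0.079) and 0.79 (SE 0.099), with edgeR FDR = 1.84e-06, 1.09e-06 and 9.47e-06. EIF3L, EIF3D and EIF3G were lower by similar amounts (log2 differences of -0.79, -0.78 and -0.75, edgeR FDR = 3.46e-06, 2.93e-07 and 5.36e-06). EIF3J was lower as well (-0.58, SE 0.096). The sum of EIF3C and EIF3CL differed by -0.75 (SE 0.14, edgeR FDR = 0.000318), against -2.50 for EIF3C alone.

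For 7 of the 55 members the 8 libraries of one line did not overlap with those of the other, against 22.6% of all genes. EIF3H ranged from 425 to 666 CPM in A431 cells (median 569) and from 228 to 394 in HaCaT cells (median 291). EIF3D ranged from 166 to 209 CPM (median 185) and from 238 to 382 (median 314). These 2 subunits of one complex thus stood apart in opposite directions. EIF2A ranged from 348 to 535 CPM in A431 cells (median 446) and from 203 to 331 in HaCaT cells (median 261), and EIF2B5 from 114 to 133 (median 118) and from 55.3 to 91.4 (median 72.0). The others were EEF1A2, EIF4ENIF1 and EIF5. For EIF3E, EIF3I, EIF3L, EIF3G and EIF3J the lines overlapped, as did they for EIF5A2 (38.3 to 106 against 8.41 to 75.8 CPM) and EIF4A2 (533 to 1820 against 269.5 to 669 CPM).

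**Figure D4:**
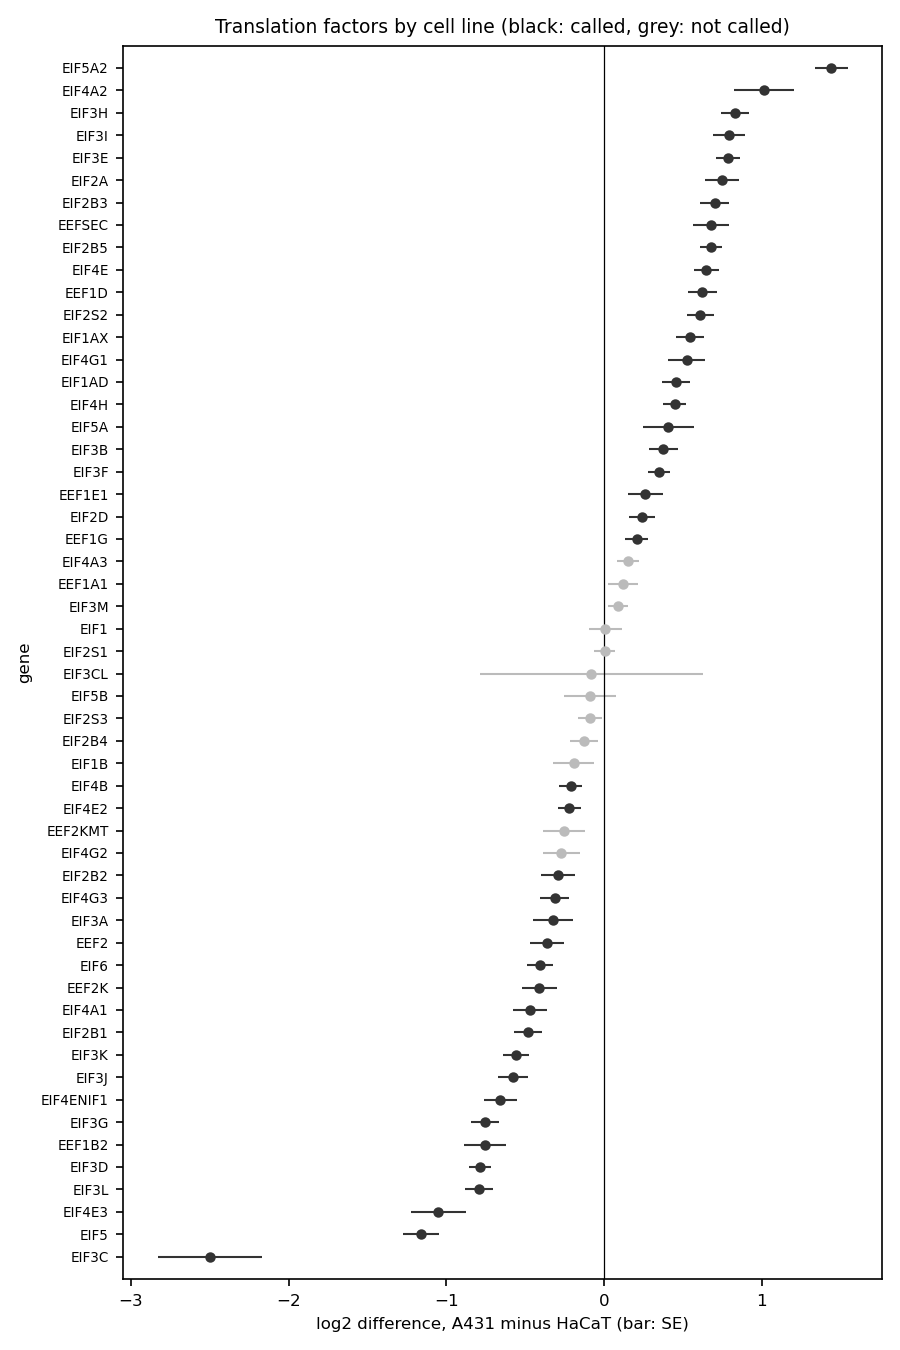
Log2 difference between A431 and HaCaT cells for 54 tested factors, with bars for the SE, black points for called genes and grey points for the others. EEF1A2, at -7.02, is left off the plot so that the rest can be read.

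EIF5A2 was higher in A431 cells by 1.44 (SE 0.10, edgeR FDR = 4.35e-08), and EIF4A2, the second eIF4A helicase gene, by 1.01 (SE 0.19, edgeR FDR = 0.000344). EIF2A, which can deliver initiator tRNA without GTP, was higher by 0.75 and the eIF2B subunits EIF2B3 and EIF2B5 by 0.70 and 0.68. EEFSEC was higher by 0.68 and EIF4E, the cap-binding protein, by 0.65. Within the vector libraries alone EIF2B3 and EIF4E had differences of -0.056 and -0.11 and were not called, so that their line difference rested on the siRNA libraries, where it was 1.40 and 1.36. EIF4E lay at 36.5 to 53.7 CPM in the siRNA arm of HaCaT cells and at 130 to 158 CPM in the vector arm, while A431 cells held 113 to 162 CPM throughout.

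EIF5, which makes eIF2 hydrolyse its GTP at the start codon, was lower in A431 cells by 1.16 on the log2 scale (log2 difference -1.16, SE 0.11, edgeR FDR = 7.49e-07). It lay at 196 to 483 CPM in A431 and at 580 to 788 CPM in HaCaT cells, without overlap. EIF4E3, a divergent relative of eIF4E, differed by -1.05, EEF1B2 by -0.76 and EIF4ENIF1, the protein that carries eIF4E into the nucleus, by -0.66. Within the vector libraries EIF4E3 (edgeR FDR = 0.0769) and EIF3I (edgeR FDR = 0.0611) were not called, and within the siRNA libraries EIF3J was not (edgeR FDR = 0.068). EEF1A2 lay at 0 to 0.827 CPM in A431 and at 3.36 to 22.0 CPM in HaCaT cells.

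The balance between related factors was read as the log2 ratio of their counts within a library, with 0.5 added to each count, which does not depend on scaling between libraries. Of 7 pairs, 4 differed between the lines in an exact two-sided permutation test over 8 and 8 libraries (Benjamini-Hochberg over the 7 pairs). Rearrangements took no account of arm or treatment, so differences between the arms added to the spread within a line. The EEF1A2 to EEF1A1 ratio was lower in A431 cells by 5.99 on the log2 scale (log2 difference -5.99, adjusted p = 0.00109, exact test), and the lines did not overlap. Before adjustment its p was 0.000155 (exact test), the smallest that 8 against 8 libraries allow. The EIF4E2 to EIF4E ratio differed by -0.98 (adjusted p = 0.00218, exact test) and the EIF4E3 to EIF4E ratio by -1.71 (adjusted p = 0.00725, exact test). EIF4A2 to EIF4A1 was higher in A431 cells by 1.51 (adjusted p = 0.0394, exact test). That last call was lost in 10 of the 16 settings that left out 1 library (adjusted p up to 0.0745, exact test), and the other 3 calls were lost in none of them. The ratios of EIF4G3 to EIF4G1 (-0.83), EIF5A2 to EIF5A (0.72) and EIF1B to EIF1 (-0.16) did not pass.

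Within the arms the picture was not even. In the siRNA libraries 6 of the 7 pairs differed at the smallest adjusted p that 4 against 4 libraries gave there (0.0333, exact permutation test), EIF5A2 to EIF5A being the exception. In the vector libraries none passed (smallest adjusted p = 0.1, exact permutation test), and only the EEF1A2 to EEF1A1 and EIF4A2 to EIF4A1 ratios stayed apart without overlap, with differences of -5.92 and 1.90. With 4 against 4 libraries the smallest unadjusted p is 0.0286 (exact permutation test), so no pair could pass alone once adjusted. The counts of pairs in the arms thus cannot be set against each other. The EIF4E2 to EIF4E difference was -1.69 in the siRNA libraries and -0.26 in the vector libraries.

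**Figure D5:**
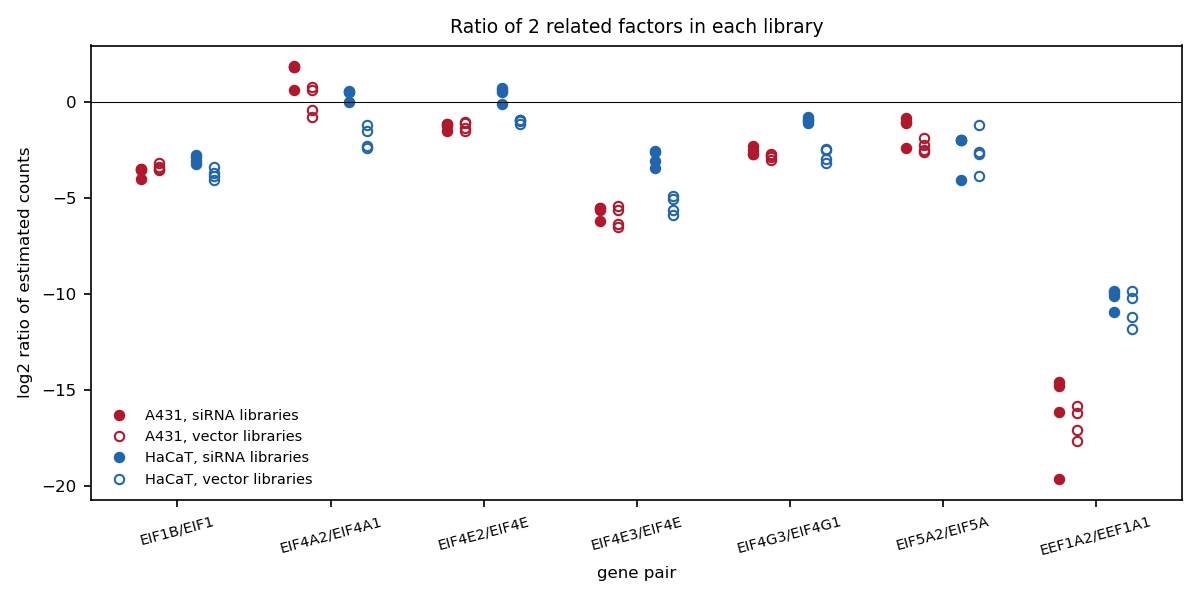
Log2 ratio of the estimated counts of 7 pairs of related factors, with 1 point per library, A431 cells in red, HaCaT cells in blue, filled points for siRNA libraries and open points for vector libraries. EEF1A2 to EEF1A1 separates the lines in both arms, and in HaCaT cells several other ratios separate the arms.

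The regulators and partners of the factors were read from lists of 17 regulators of initiation, 5 termination and rescue factors, 3 partners of eIF5A and of selenocysteine insertion, and 8 mitochondrial translation factors. With siYAP over both lines 0 of the 17 regulators were called higher and 2 lower, beside 5.30% and 7.68% of all genes. EIF4EBP2, which holds eIF4E away from eIF4G, changed by -0.52 (SE 0.094, edgeR FDR = 0.00369), with 165 CPM against 79.8, 87.3 and 81.4 CPM in A431 cells and 354 CPM against 350, 310 and 361 CPM in HaCaT cells. It was called in A431 cells alone (-0.99, edgeR FDR = 0.00165) and not in HaCaT cells (-0.053), and the difference between the lines did not pass the test (edgeR FDR = 0.0805). PAIP2, an inhibitor of the poly(A)-binding protein, was lower by 0.49 (log2 fold change -0.49, SE 0.12, edgeR FDR = 0.0186).

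With YAP5SA in HaCaT cells EIF4EBP1 was called higher (16.6 CPM against 30.3, 28.3 and 36.6 CPM, log2 fold change 0.94, edgeR FDR = 0.0252). PDCD4, which blocks eIF4A, was called lower there (378 CPM against 206, 66.2 and 122 CPM, log2 fold change -1.52, edgeR FDR = 0.0215). EIF4EBP1 was also higher in A431 than in HaCaT cells by 2.63 (SE 0.13, edgeR FDR = 1.01e-09), and PABPC1, the main poly(A)-binding protein, by 1.21 (SE 0.097, edgeR FDR = 1.26e-07). Of the 17 regulators 10 were called higher in A431 cells and 3 lower, where 33.1% and 27.5% of all genes were.

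Among the termination factors GSPT1, the GTPase eRF3a, was called lower with siYAP over both lines (log2 fold change -0.40, SE 0.11, edgeR FDR = 0.0287) and the other 4 were not called. Its paralog GSPT2 had 0 counts in each of the 8 A431 libraries and 9.14 to 13.2 CPM in HaCaT cells, where its mean was at least 74.2-fold higher than the highest A431 floor of 3 counts in a library. SECISBP2, which binds the selenocysteine element, was higher with siYAP over both lines by 0.46 (SE 0.090, edgeR FDR = 0.0061). DOHH, the enzyme that completes hypusine on eIF5A, was higher with YAP5SA in HaCaT cells by 1.58 (SE 0.46, edgeR FDR = 0.0367), at 1.37 CPM against 3.46, 4.65 and 4.18 CPM. None of the 8 mitochondrial factors was called by edgeR with siYAP or YAP5SA in either line or over both, and between the lines 2 were called higher in A431 cells and 3 lower, again beside 33.1% and 27.5% of all genes.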

How the data were processed

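RNA-seq of 2 human cell lines was analysed from 1 table. The authors deposited estimated counts per gene, neither scaled nor filtered, made by RSEM from paired reads on RefSeq gene models. The submitters' processing notes name RSEM 1.2.11, edgeR and the build hg19. Groups follow the labels. Values were rounded to whole numbers and tested in R 4.3.3 with edgeR 4.0.16 (TMM factors, 1 quasi-likelihood model of 8 groups, 8 residual degrees of freedom from the 4 triplicates, 14673 genes over a mean of 10 counts). The SE is the log2 fold change divided by the root of F. DESeq2 1.42.0 was an alternative. Ratios were tested in Python 3.11.15 with scipy 1.17.1, with 0.5 added to each count. UTRs came from the transcript with the longest coding sequence. The test was checked on simulated counts with the same spread setting for every gene and no differences between lines or arms. Controls that stand apart from each other were not simulated. Alternatives (scaling, filter, tool, controls, replicate block, libraries left out) are in the closing section. Genes named with values are the called members, the 10 largest in each direction between the lines, both genes of each pair, eIF3 subunits and called genes of the lists. EIF1, EIF2S1, EIF2S2, EIF2S3, EIF5B, EIF4B, EIF5A and the genes named for differing between arms were picked with their values in view. The members and lists were chosen with earlier results of these data known. For 3 libraries against 1, permutation allows no p under 0.25, and p-values measure the spread within triplicates that the study's methods call biological. A marker gene and a promoter window are not reported here.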

Additional observations from a re-analysis of the deposited data

How the results depend on the processing

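Alternatives were RLE size factors, DESeq2, no count filter, the FDR alone, a replicate block, siCTRL and empty vector as 2 controls per line, each treated library left out and, for the lines, the treated triplicates alone. Counting EIF3C and EIF3CL together and each arm alone were added after seeing the data. DESeq2 called 8 members with YAP5SA in HaCaT cells, 3 with YAP5SA over both lines, and 1 and 2 for the differences of the siYAP and YAP5SA responses between lines. Of all genes it called 18.6%, 7.24%, 1.91% and 6.32% in these comparisons. Without the count filter 1 member differed between lines in its siYAP response, beside 0.132% of all genes. With 2 controls per line the counts were 1 and 19 for siYAP in A431 and HaCaT cells, 19 for siYAP over both lines, and 11 and 5 for YAP5SA in HaCaT cells and over both lines, beside 198, 2941, 2933, 1908 and 766 of the 14673 genes. EIF3L with siYAP over both lines became 0.028 (the causes were not tested). Leaving out a treated library gave 7 to 10 for siYAP over both lines, 0 to 1 for YAP5SA in A431 cells, 2 to 9 in HaCaT cells, 1 to 5 over both lines and 0 to 3 for its difference between lines. With the copies counted together EIF3C changed by -0.25 in A431 cells and -0.19 over both lines. Within vector libraries the line differences of EIF2B3, EIF4E and the EIF1B to EIF1 ratio were -0.056, -0.11 and 0.34. There 0 pairs of related factors passed, in a test of 4 against 4 libraries in which no pair could pass alone. Same-numbered libraries deviated together between the YAP5SA triplicates of the lines (r = 0.363, 0.158 and 0.135), where the replicate block changed no count of members called with YAP5SA. Over all triplicates 7 of 18 such pairs were above 0.1 and 9 of 18 correlated best with their own number, so that the numbers were not taken to pair the siYAP libraries. The replicate block gave 5, 7 and 14 members for siYAP in A431, in HaCaT and over both lines (over both lines EEF1A2 lost its call and EEF1B2, EIF2S2, EIF3B and EIF4A1 gained one), 0, 5 and 1 for YAP5SA and 44 for the lines. With it 6.41%, 6.41% and 14.0% of all genes were called for siYAP, 0.00682%, 15.2% and 4.16% for YAP5SA and 61.4% for the lines. Of 130 settings tried on the 10 counts 110 stayed within 1.5 times the main count. That compares counts, not which genes were called. The FDR alone could not change a count of members, as every tested member had a logCPM above 1.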
